A study of Rattus norvegicus with 12 samples.

Results

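N6-methyladenosine (m6A) peaks whose start and end both fall on a fixed grid of 20 bases were examined in the list of peaks that differed between injured and uninjured rat sciatic nerve. A peak was included when its start was 1 base past a multiple of 20, its end was a multiple of 20, and its length (end minus start) was under 500 bases. This gave 362 of the 4014 peaks in the list, or 9.02% (exact 95% Clopper-Pearson interval 8.15% to 9.95%). They are called grid-bordered peaks here. The idea behind the choice is that a software window ends on the grid, whereas a peak trimmed at an exon edge ends anywhere, so that grid-bordered peaks are those expected to lie wholly within a long exon. Only the coordinates chose them, and neither the score, the strand nor the gene was used.

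The nerves came from female Wistar rats of 100 to 120 g, 4 weeks old. The SNI group was sampled at the centre of the injured sciatic nerve 7 days after sciatic nerve injury, and the control group was uninjured. In each group 3 samples gave an m6A immunoprecipitation (IP) library and a matching input library, which makes 12 libraries. The whole nerve was taken, so that Schwann cells, fibroblasts, immune cells and axons share each library, and fewer cells of a type cannot be told apart from less RNA per cell. The deposited list holds 1 row per peak over all libraries together, with a position on the rn5 rat genome, a strand and a score, and nothing in it gives the single libraries, the size or direction of a difference, a gene or the read depth. No replicate error or depth can therefore be given for a peak, and intervals below cover counting error over peaks only. Peaks that lie side by side in a transcript are not independent of each other.

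m6A is placed on nascent mRNA by a methyltransferase complex with METTL3 and METTL14 at its core and is removed by the demethylases FTO and ALKBH5. In mammalian mRNA it is known to be sparse near splice junctions, where exon junction complexes keep the methyltransferase away, and frequent in long internal exons, around stop codons and in 3′ untranslated regions (3′UTRs). Genes whose whole coding region lies in 1 exon, such as Jun, Sox4 and many G protein-coupled receptors, are textbook cases of long uninterrupted exons. In injured peripheral nerve, Schwann cells leave the myelinating state under the control of Jun, and macrophages and lymphocytes enter the tissue.

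The grid was plain in the coordinates of the whole list. A start 1 base past a multiple of 20 was found for 1218 peaks, while each of the other remainders held between 128 and 161 starts, with a mean of 147. An end at a multiple of 20 was found for 1220 peaks, against 120 to 176 at each other remainder, with a mean of 147. In all, 495 peaks were on the grid at both edges, 723 at the start only, 725 at the end only and 2071 at neither. When the start was on the grid, 40.6% of the ends were on it too, against 25.9% when the start was not. The direction of this difference depended on length. Among the 2472 peaks under 199 bases it was reversed, at 7.76% against 23.7%. From 199 to 499 bases the shares were 64.5% and 29.4%, and over 499 bases 58.8% and 36.8%. Of the 495, 133 peaks were 500 bases or longer and fell outside the limit. These counts describe what the rule used.

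**Figure D1:**
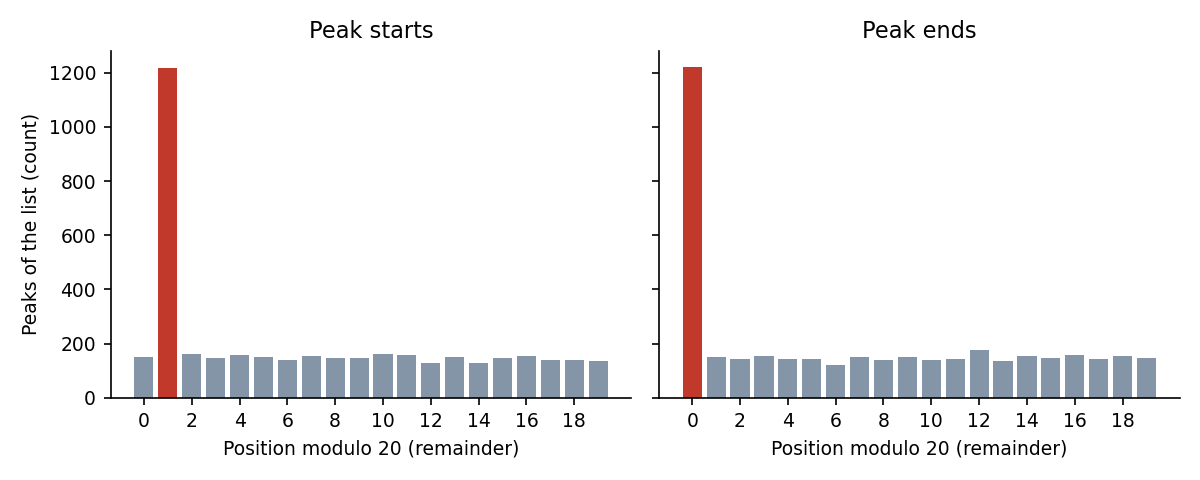
Counts of peak starts (left) and peak ends (right) of the 4014 peaks at each remainder of the position after division by 20. The red bars are the remainders used by the rule, 1 for starts with 1218 peaks and 0 for ends with 1220, and the grey bars are the others, which stay between 120 and 176.

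The lengths of grid-bordered peaks rose abruptly at 199 bases. There were 5 peaks of 179 bases, 39 of 199 bases and 20 of 219 bases. The most common length was 379 bases, with 43 peaks, between 11 peaks of 359 bases and 16 of 399 bases. The median was 299 bases, with quartiles of 219 and 379 bases. Peaks with 1 edge on the grid and peaks with neither had no such step at 199 bases. Their counts were highest between 100 and 119 bases, at 148 and 286 peaks, and their medians were 147 and 132 bases. Grid-bordered peaks covered 110218 bases in all. Length is partly fixed by the rule, so these values were not tested.

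**Figure D2:**
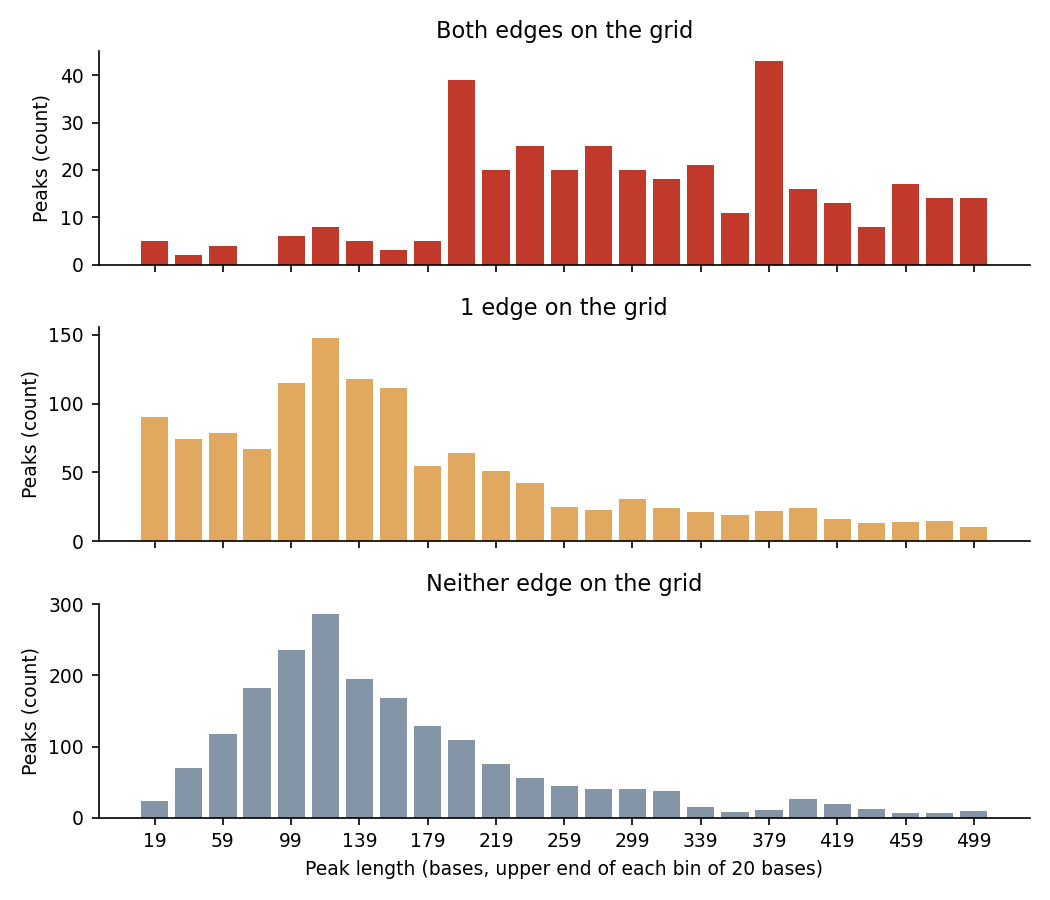
Number of peaks under 500 bases in bins of 20 bases, for peaks with both edges on the grid (top), 1 edge (middle) and neither edge (bottom), with separate vertical scales. The top panel has 39 peaks at 199 bases and 43 at 379 bases and few below 199, while the other panels are highest at 100 to 119 bases.

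Whether a grid-bordered peak lies inside a long exon was not determined, and the edge counts of the shortest peaks differed from those of longer ones. Below 199 bases there were 38 grid-bordered peaks, and in that length range 452 peaks were on the grid at the start only, which is 23.8 for each off-grid remainder of the end, and 469 at the end only, or 24.7 for each off-grid remainder of the start. From 199 to 499 bases there were 324 grid-bordered peaks against 9.37 and 9.05 per remainder. Short grid-bordered peaks thus exceeded the count per off-grid remainder far less than longer ones did. No value here places a peak of either length range inside a long exon. Among the 38 short ones are 5 peaks of only 19 bases. Those of Wdfy4 (score 5.85) and Rps27l3 (5.69) have a gene name, and the others start on chromosome 1 at 195157061 (7.10), chromosome 9 at 17603721 (9.39) and chromosome 15 at 51872821 (9.33). An exon annotation of rn5 was not used here, so the exon around a peak was not looked up.

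The limit of 500 bases cut through a continuous range. Just inside it, 14 peaks were 499 bases long, with scores from 5.68 to 10.4 and a median of 7.79. They include peaks of Dusp10, a phosphatase of the stress-activated kinases (9.66), and of Olr1, the scavenger receptor for oxidized lipoprotein (7.58). Just outside it, 8 peaks were 519 bases long, with scores from 5.11 to 10.5 and a median of 6.996.

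The score is the authors' −log10 of the diffReps p-value for SNI against control, and 5.001 is the lowest in the list. Grid-bordered peaks scored from 5.001 to 12.7, with a median of 7.44 (95% interval of the median 7.22 to 7.60) and quartiles of 6.52 and 9.02. The median of the whole list was 7.46, that of peaks with 1 edge on the grid 7.48 and that of peaks with neither 7.45, all within the interval of the grid-bordered peaks. A score of at least 8 was reached by 135 grid-bordered peaks, or 37.3% (32.3% to 42.5%), beside 37.1% of all peaks. Peaks that end on the grid thus stood neither higher nor lower in the list by this measure. By score, their share of the list ran between 8.48% and 10.02% from 5 to below 9. From 9 to below 10 the share was 13.8% (10.3% to 17.8%), where 48 of 349 peaks were grid-bordered. It was 7.12% (4.40% to 10.8%) from 10 to below 11 and 7.73% (4.57% to 12.1%) from 11 to below 12. From 12 to below 13 it was 5.45% (2.03% to 11.5%). Differences between these score ranges were not tested. None of the 11 peaks at 13 or above was grid-bordered, which allows a share of up to 28.5%. Across the 362 peaks, which share libraries, Spearman's rho of length and score was 0.022, against 0.088 over the whole list.

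The 10 highest scores of grid-bordered peaks ran from 11.6 to 12.7. The highest was a peak of 479 bases on the plus strand of chromosome 9, from 22278501 to 22278980 (score 12.7, rank 24 in the list). It was followed by a peak of 199 bases on chromosome 13, from 108968821 to 108969020 (plus, 12.6), which lies 31941 bases from the nearest other peak, one of Dusp10. The next were on chromosome 2 from 111212281 to 111212600 (minus, 12.5), on chromosome 5 from 176708421 to 176708620 (minus, 12.2) and on chromosome 10 from 31879021 to 31879220 (minus, 12.1). Only 2 of the 10 have a gene name in the tables used here. The peak of Spn, which encodes the leukocyte surface sialoglycoprotein CD43, was sixth (chromosome 1 from 205566761 to 205566960, minus, 12.04). The peak of Tbc1d9, of a family of Rab GTPase regulators, was seventh (chromosome 19 from 35370761 to 35370920, plus, 11.7). The remaining 3 lie on chromosome 3 from 126571321 to 126571700 (minus, 11.6), chromosome 2 from 176421501 to 176421760 (minus, 11.6) and chromosome 4 from 150359661 to 150360140 (plus, 11.6).

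By strand, 190 grid-bordered peaks were on the minus strand and 172 on the plus strand, or 52.5% minus (47.2% to 57.7%), beside 55.2% of the list. Chromosome 1 held the most, 50 of its 489 peaks. Chromosome 4 followed with 35 of 275, or 12.7% (9.03% to 17.3%), and chromosome 3 with 31 of 420, or 7.38% (5.07% to 10.3%). The highest share was that of chromosome 20, 9 of 59 peaks or 15.3% (7.22% to 27.0%), and the lowest that of chromosome 12, 3 of 61 or 4.92% (1.03% to 13.7%), and these intervals overlap. The 2 dense runs of minus-strand peaks on chromosome 3 held almost none. The run from 42778861 to 42953918 had 0 among its 78 peaks, and the run from 70247337 to 70402652 had 2 among 56. Of these 134 peaks, 104 had neither edge on the grid.

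Grid-bordered peaks had a close neighbour more often than peaks with 1 edge or neither edge on the grid, and about as often as the longer peaks with both edges on it, so this is not particular to those under 500 bases. Another peak of the list lay within 1000 bases on the same strand for 140 of them, or 38.7% (33.6% to 43.9%). This was the case for 19.6% (17.6% to 21.8%) of peaks with 1 edge on the grid and for 13.4% (11.98% to 14.97%) of those with neither. Of the 133 peaks with both edges on the grid and 500 bases or more it was the case for 42.9% (34.3% to 51.7%). The gap was at most 500 bases for 31.8%, against 12.4% (1 edge), 3.62% (neither) and 38.3% (both edges, 500 bases or more), and at most 100 bases for 9.94%, against 3.59%, 0.145% and 15.8%. Within 20000 bases the shares were 55.5% of grid-bordered peaks (50.2% to 60.7%), 57.0% of those with 1 edge on the grid (54.4% to 59.5%) and 64.4% of those with neither (62.3% to 66.5%). The median distance to the nearest peak was 8.28 kb and the upper quartile 340.2 kb, beside 10.7 kb and 222.9 kb for peaks with 1 edge and 6.92 kb and 70.3 kb for peaks with neither. These shares come from positions, neighbours count for each other, and no test over samples can be made.

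Of the 140 with a close neighbour, the nearest peak was grid-bordered in 58 cases, on the grid and 500 bases or longer in 27, on the grid at 1 edge in 48 and at neither in 7. A neighbour on the grid at both edges was thus found in 60.7%. Edges on the grid are what the rule used, and pairs of grid-bordered peaks can count from both sides. This share is therefore a description and is not compared with the whole list. The gap was under 199 bases for 73 of the 140, and the smallest, found for 11 peaks, was 21 bases. No grid-bordered peak overlapped another peak of its strand. The serial numbers in the peak names of the pair followed directly on each other for 136 of the 140. The score of a grid-bordered peak and that of its close neighbour differed by a median of 0.922. On the opposite strand, 1 of the 362 had a peak within 1000 bases. Among the 38 peaks shorter than 199 bases, 6 had a close neighbour (15.8%, 6.02% to 31.3%), and among the 324 longer ones 134 had (41.4%, 35.9% to 46.9%).

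**Figure D3:**
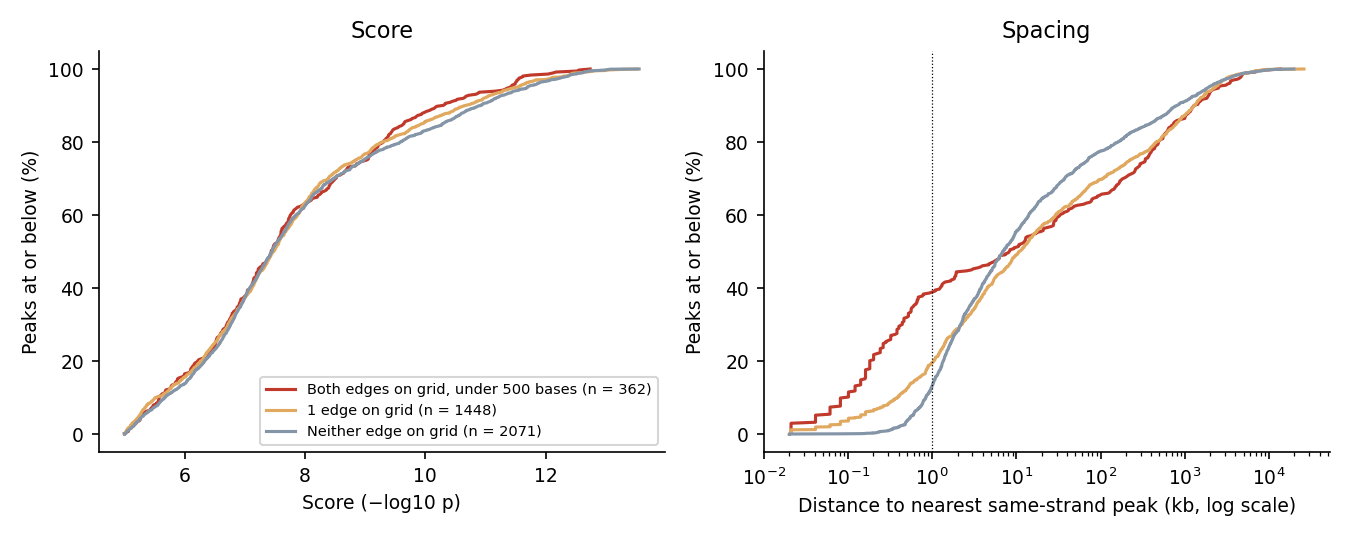
Cumulative share of peaks by score (left) and by distance to the nearest other peak of the same strand on a log scale in kb (right), for grid-bordered peaks (red), peaks with 1 edge on the grid (orange) and peaks with neither (grey). Overlaps are drawn at 0.02 kb and the dotted line marks 1 kb. The score curves nearly coincide, while at 1 kb the red curve is at 38.7%, the orange at 19.6% and the grey at 13.4%.

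When grid-bordered peaks of the same strand with gaps of at most 1000 bases were joined, 63 fell into 29 groups and 299 stood alone. There were 25 pairs and 4 larger groups. The largest was a run of 4 on the plus strand of chromosome 3, from 60256861 to 60259100, with scores between 7.10 and 7.38. A run of 3 from 60249941 to 60252380 (6.91 to 7.82) and a pair from 60273041 to 60274320 (7.04 and 7.55) lie on the same strand nearby. A single grid-bordered peak from 60254061 to 60254300 (7.69) lies between the run of 3 and the run of 4, on the same strand. All these peaks have like scores and stand close together. The tables used here give no gene for them. Another run of 3 was on chromosome 18, minus strand, from 27723381 to 27725620, with scores of 8.40, 9.31 and 7.29. The last of the 4 larger groups is a run of 3 on chromosome 5 that includes the named peaks of Jun.

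Gene names came from the paper's tables, by identical start and end or, for the loci of its expression table, by overlap on the same strand. The supplementary peak table used here is shortened to 526 rows, all from its sheet of peaks with more m6A after SNI, and it named 46 grid-bordered peaks of 43 genes. With the values used here, more m6A on a transcript cannot be told apart from more of the transcript. The table of top peaks added 2 peaks, of Fam160a1 and Cxxc4, and the loci 4. These 6 are not among the rows used here. The table of top peaks lists those of Fam160a1 and Cxxc4 as lower after SNI, and no direction is given for the 4 peaks named from loci. The naming left 310 grid-bordered peaks (85.6%) without a name, and nothing is said about their direction or gene. In the 526 rows the share of grid-bordered peaks was 8.75% (6.47% to 11.5%), beside 9.02% of the list. The named 46 scored from 5.08 to 12.04 with a median of 7.498, which was also the median of all 526 rows, and had a median length of 289 bases. The gene lists below were written with the genes in these rows known, so their counts describe the rows and support nothing further. Intervals of their shares treat peaks of the same gene as separate draws, and no list was tested against the rows.

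**Figure D4:**
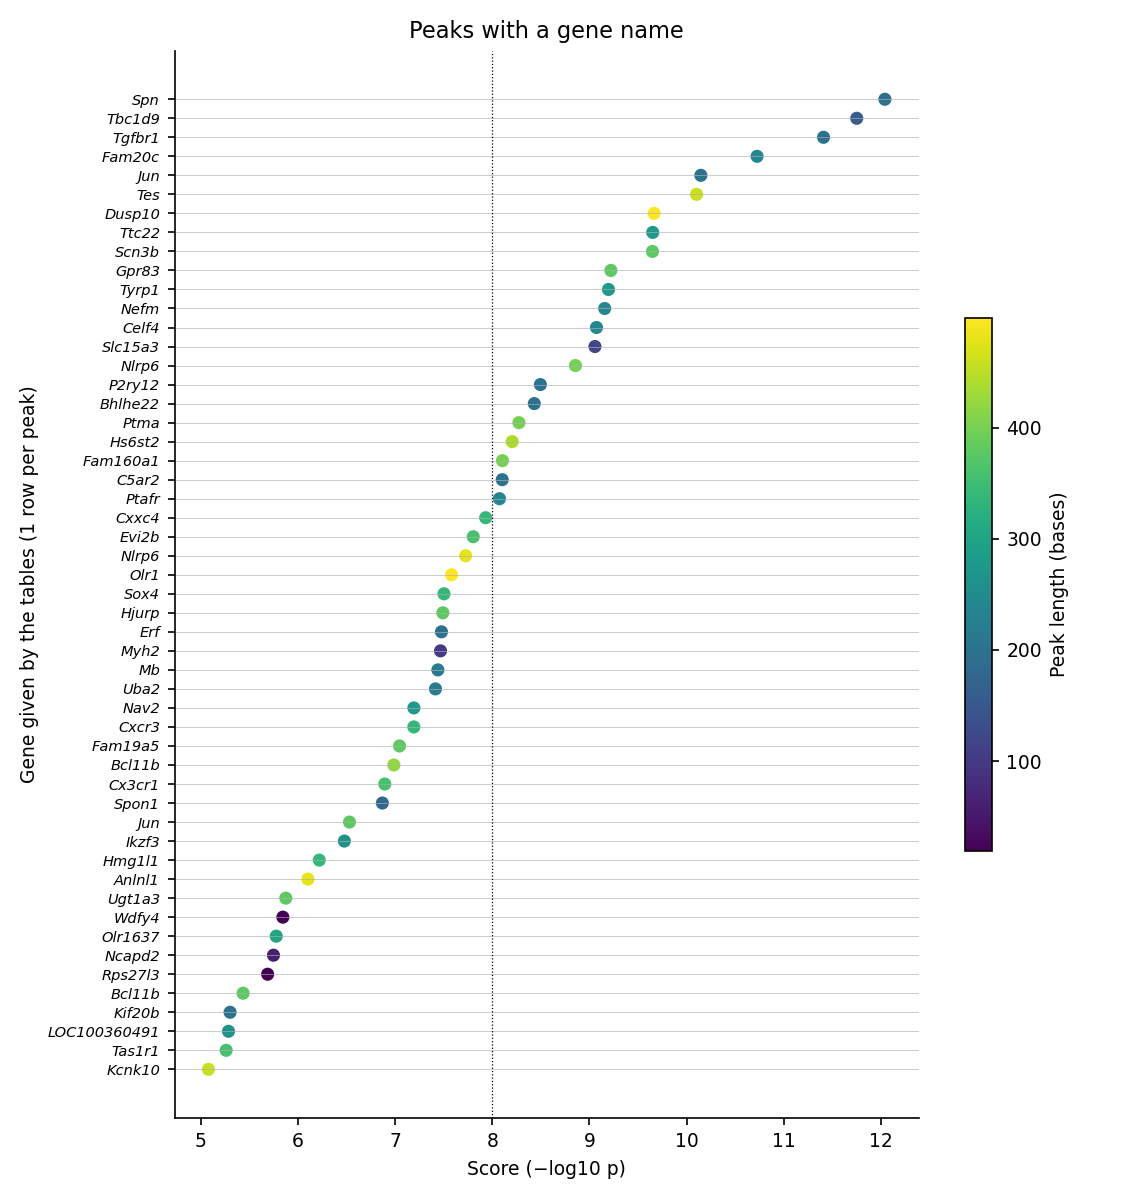
Score of each of the 52 grid-bordered peaks with a gene name, ordered by score, with the colour giving the peak length in bases and the dotted line a score of 8. Of these, 46 come from the sheet of peaks with more m6A after SNI. Those of Fam160a1 and Cxxc4 come from the table of top peaks, which lists them as lower after SNI. Those of Gpr83, Tyrp1, Mb and Myh2 come from loci of the expression table, with no direction given for the peak. Spn (12.04), Tbc1d9 (11.7) and Tgfbr1 (11.4) are at the top, Kcnk10 (5.08) is at the bottom, and Jun, Bcl11b and Nlrp6 appear with 2 peaks each.

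Transcription factor genes contributed 8 grid-bordered peaks of 6 genes among the 32 peaks of 22 such genes in the rows, or 25% (11.5% to 43.4%), beside 8.75% of all rows. Jun, the AP-1 subunit that drives the repair state of Schwann cells and has its coding region in 1 exon, had both of its named peaks on the grid. The first, on the minus strand, spans chromosome 5 from 117958521 to 117958720 (199 bases, score 10.1), and the second from 117958821 to 117959200 (379 bases, 6.53). A grid-bordered peak with no name lies 641 bases away at higher coordinates, from 117959841 to 117960260 (419 bases, 8.42), which makes the run of 3 span 1739 bases. The scores in this run were high at both ends and low in the middle. Peaks of another early-response gene, Egr1, were not grid-bordered in the rows, but an unnamed grid-bordered peak lies 141 bases from an Egr1 peak (chromosome 18 from 27371101 to 27371440, plus, 7.24).

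Bcl11b, a zinc-finger repressor of T cells and neurons, had 4 named peaks. Grid-bordered ones (minus strand) span chromosome 6 from 141007141 to 141007560 (419 bases, 6.99) and from 141008501 to 141008880 (379 bases, 5.44). A peak of 699 bases between them, from 141007741 to 141008440, is on the grid at both edges as well (7.36). These 3 stand 181 and 61 bases apart, and the fourth, which the table of top peaks assigns to the coding sequence (CDS), is on the grid at neither edge (8.47). Bhlhe22, a neuronal bHLH repressor with a single exon, had a grid-bordered peak of 199 bases (8.43) and a peak of 639 bases on the grid at both edges (7.44), 381 bases apart. Sox4, an SRY-box factor with a single exon, had 1 of 339 bases (7.504). Erf, an Ets-domain repressor, had 1 of 199 bases (7.48), and Ikzf3, the lymphoid factor Aiolos, 1 of 259 bases (6.48). For Bcl11a, the paralog of Bcl11b, an unnamed grid-bordered peak of 479 bases (6.09) lies 21 bases from a named peak of that gene.

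G protein-coupled receptor genes contributed 7 of the 14 peaks of 11 such genes in the rows, or 50% (23.0% to 77.0%), the highest share of the 9 lists. A single exon holds the coding region of many receptors of this family. Of the other 7 peaks, 6 had 1 edge on the grid and 1 had neither. Receptors of phagocytes and platelets were among the 7. P2ry12, the ADP receptor of platelets and microglia, had a peak of 199 bases (chromosome 2 from 168874501 to 168874700, minus, 8.50). Ptafr, the receptor for platelet-activating factor, had one of 239 bases on the plus strand of chromosome 5 from 154441241 to 154441480 (8.07), with an unnamed grid-bordered peak further on, from 154441721 to 154442100 (6.77). C5ar2, a receptor for the complement fragment C5a, had one of 199 bases (chromosome 1 from 79433641 to 79433840, minus, 8.10). An unnamed grid-bordered peak of the same length lies 21 bases away at lower coordinates (79433421 to 79433620) and scored higher, at 11.5. At lower coordinates still, 381 bases from that one, a named C5ar2 peak of 132 bases ends on the grid (10.9).

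Chemokine receptor peaks scored lower than those. Cx3cr1, the fractalkine receptor of macrophages and microglia, had a peak of 359 bases (chromosome 8 from 127941681 to 127942040, minus, 6.90). Cxcr3, a receptor of T cells for interferon-induced chemokines, had one of 339 bases (chromosome X from 72463741 to 72464080, minus, 7.19). The lowest were those of the sensory receptors Olr1637, an olfactory receptor (299 bases, 5.78), and Tas1r1, a subunit of the umami taste receptor (359 bases, 5.26). Gpr83, an orphan receptor, is named from its locus in the expression table. Its peak of 379 bases lies on the plus strand of chromosome 8 from 13314281 to 13314660 (9.22). This was the highest score among the named grid-bordered peaks of receptors of this kind. Near Oxtr, the oxytocin receptor, an unnamed grid-bordered peak of 299 bases (7.59) lies 141 bases from the peak that the table of top peaks assigns to the stop codon. That table lists the Oxtr peak as lower after SNI, and no direction is given for the unnamed one.

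Neuronal and nerve growth genes contributed 6 of 41 peaks, or 14.6% (5.57% to 29.2%), beside 8.75% of all rows. The highest score was that of Scn3b, a sodium channel beta subunit, with 379 bases (chromosome 8 from 61382141 to 61382520, minus, 9.65). Nefm, the medium neurofilament chain, had a grid-bordered peak of 239 bases on the plus strand of chromosome 15 from 46740621 to 46740860 (9.16). An unnamed grid-bordered peak of 499 bases with nearly the same score (9.04) lies 181 bases before it, and a named peak of 539 bases, on the grid at both edges, lies further upstream (8.31). Beside a peak of Nefl, the light chain, an unnamed grid-bordered peak of 379 bases (7.10) lies at 381 bases. Celf4, an RNA-binding protein of neurons, had a peak of 239 bases (9.07). Nav2, a neuron navigator, had 7 named peaks, of which only the last in the direction of transcription, of 279 bases from 105991281 to 105991560 on chromosome 1, was grid-bordered (7.19). Of the 6 others 1 was on the grid at 1 edge and 5 at neither, and their lengths ran from 73 to 154 bases. An unnamed grid-bordered peak of the same 279 bases lies 61 bases after it (6.64). Spon1, the matrix protein F-spondin, had a peak of 179 bases (6.87), and Kcnk10, a two-pore-domain potassium channel, the lowest named score (459 bases, 5.08).

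In growth factor and MAPK signalling, 2 of 11 peaks were grid-bordered (18.2%, 2.28% to 51.8%). Tgfbr1, the type I receptor of TGF-beta, had a peak of 199 bases on the plus strand of chromosome 5 from 67635421 to 67635620 (11.41). Of its 2 other named peaks, with neither edge on the grid, that starting at 67575639 scored 11.43. The other, starting at 69081997, scored 8.17. It lies far from the first 2 on the chromosome, so whether it belongs to the same gene is uncertain. Dusp10 had its peak of 499 bases on the plus strand of chromosome 13 from 108936381 to 108936880 (9.66). Of 14 peaks in genes of inflammasome sensors 2 were grid-bordered (14.3%, 1.78% to 42.8%), both in Nlrp6, on the plus strand of chromosome 1 from 220604221 to 220604620 (8.86) and from 220605001 to 220605480 (7.73), 381 bases apart.

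Of 59 peaks in 35 genes of mitosis 4 were grid-bordered, or 6.78% (1.88% to 16.5%), beside 8.75% of all rows. The 4 had a median score of 5.93 beside 7.81 for all 59. They belong to Hjurp, the chaperone of the centromeric histone (379 bases, 7.49), the anillin-like gene Anlnl1 (479 bases, 6.10), the condensin subunit Ncapd2 (59 bases, 5.75) and the kinesin Kif20b (199 bases, 5.30). Kif20b also had a named peak of 318 bases on the grid at its end only, with a higher score (8.43). Extracellular matrix genes had 0 of 15 and histone genes 0 of 12, which allows shares of up to 21.8% and 26.5%. The matrix protein gene Spon1, with its grid-bordered peak, was counted in the neuronal list and not among the extracellular matrix genes. Among ribosomal protein genes 2 of 12 peaks were grid-bordered (16.7%, 2.09% to 48.4%), those of LOC100360491 (259 bases, 5.29) and Rps27l3 (19 bases, 5.69).

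**Figure D5:**
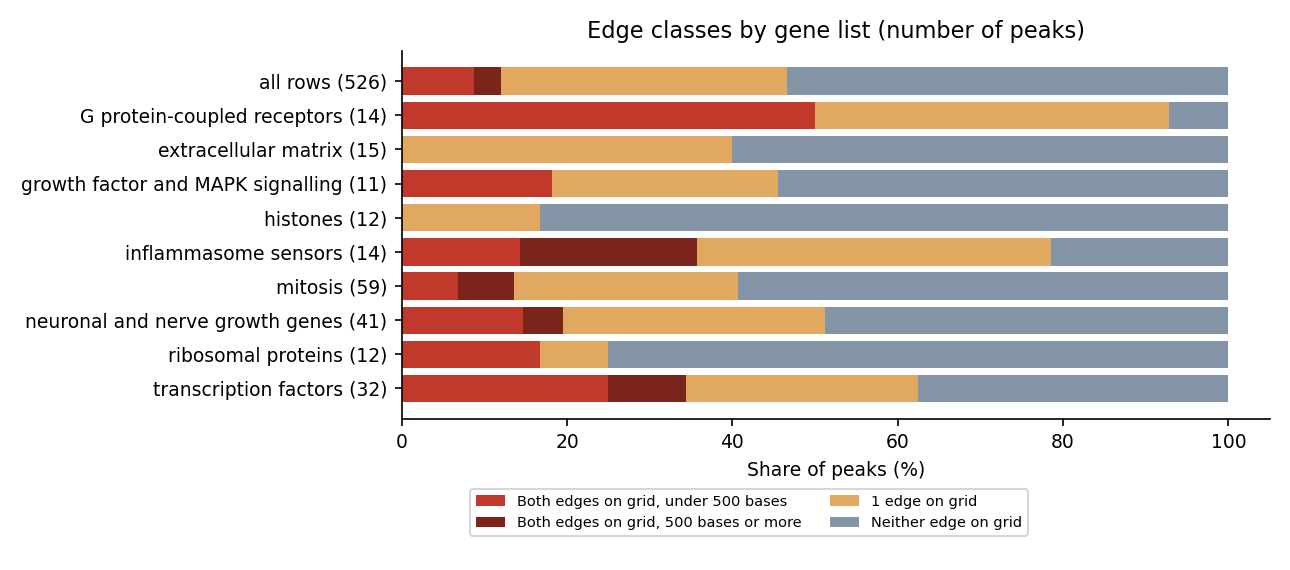
Share of peaks in each edge class, in percent, for all 526 named rows and for each gene list, with the number of peaks in parentheses. Grid-bordered peaks (red) make up 50% of the G protein-coupled receptor peaks and 25% of the transcription factor peaks, 8.75% of all rows, and none of the extracellular matrix and histone peaks.

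The transcript region is known for 3 grid-bordered peaks, those in the table of top peaks, and it differs for each. Ttc22, a tetratricopeptide repeat protein, had its peak at the start codon (chromosome 5, plus, 279 bases, score 9.65). The peak of Fam160a1 lies in the CDS (chromosome 2, minus, 399 bases, 8.10). The peak of Cxxc4, an inhibitor of Wnt signalling, lies in the 5′UTR (chromosome 2, plus, 339 bases, 7.93). Loci of the expression table held 3 more beside Gpr83. Tyrp1, a melanosomal enzyme, had a peak of 279 bases (9.20), Mb, myoglobin, one of 219 bases (7.44), and Myh2, the heavy chain of fast oxidative muscle myosin, one of 99 bases (7.47) beside 2 Myh2 peaks that were not grid-bordered.

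The remaining named peaks belong to genes in no list. High scores were those of Fam20c, the kinase of secreted proteins (239 bases, 10.7), Tes, a focal adhesion protein (459 bases, 10.1), and Slc15a3, a lysosomal peptide and histidine transporter (119 bases, 9.06). Tes had 2 further named peaks of 86 and 64 bases, 1 with a higher score (11.9) and 1 with a lower (7.73), and neither was grid-bordered. Ptma, prothymosin alpha (8.28), Hs6st2, a heparan sulfate sulfotransferase (8.21), Evi2b, a membrane protein of blood cells (7.80), Uba2, a subunit of the SUMO-activating enzyme (7.42), and Fam19a5, of a chemokine-like family (7.05), followed. The lowest of this set were Hmg1l1, a high-mobility group gene (6.22), Ugt1a3, a glucuronosyltransferase (5.88), and Wdfy4 (5.85). Of 45 genes whose symbol is in the RefSeq table of the GRCr8 assembly, 42 are on the same chromosome there as the peak. Ptma, Uba2 and Rps27l3 are on another one, so which copy of these genes their peaks belong to is uncertain.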

How the data were processed

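MeRIP-seq libraries (m6A IP and input) were made from 3 control and 3 SNI sciatic nerve samples. Reads were trimmed with Cutadapt 1.9.3 and aligned to rn5 with HISAT2 2.0.4, per the submitters' processing notes. MACS served for peak calling, and diffReps for the difference between SNI and control, where peaks were kept at a fold change of at least 2 and a p-value below 0.00001. The window and step of diffReps are not given in the sources used here. The deposited score is the −log10 of the authors' diffReps p-value, 1 per peak. Columns of fold changes, p-values and direction in the supplementary table are the authors' comparison and were not used. The directions stated above are also the authors' own. They were read only from the sheet that held the rows and from the table of top peaks.

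From the list, edges were sorted by their remainder modulo 20, and lengths, scores, strands and distances to the nearest same-strand peak were described for grid-bordered peaks and the other edge classes. Shares carry exact Clopper-Pearson intervals and medians binomial order-statistic intervals, both at 95%. No test was made, since there is 1 value per peak. Computations ran in Python 3.11.15 with scipy 1.17.1, pandas 2.3.3 and numpy 2.4.6, and plots in matplotlib 3.10.9. The functions were tested on simulated data. By rule, the text names every peak whose gene is in a gene list or a top table of the paper or has at least 2 grid-bordered peaks, the 10 highest scores, the 5 shortest and the longest peaks, those at the length limit, groups of 3 or more and, briefly, the remaining genes. Unnamed peaks beside a named one were chosen after their positions were seen. Gene symbols were checked against RefSeq (GRCr8). The members and gene lists were chosen with earlier results of these data known. Peak sequences were not read, because an rn5 genome was not used here.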

Additional observations from a re-analysis of the deposited data

How the results depend on the processing

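Of 51 values under an alternative, 43 planned and 8 chosen after seeing the data, 37 lay inside the 95% interval of the main value (counts: less than 1.5 times away), and 14 moved. Requiring a score of at least 8 left 135 grid-bordered peaks in place of 362 and 22 named ones in place of 52. It lowered the share with a peak within 1000 bases from 38.7% to 27.4% (13.7% for 1 edge on the grid and 9.01% for neither), raised the median distance from 8.28 to 95.3 kb, since fewer peaks remain, and gave a rho of length and score of -0.13. With 1 edge on the grid sufficient there were 1633 peaks. Without the upper length limit the share of the list was 12.3% and the median length 379 bases. The share was 11.7% of peaks of at least 100 bases and 21.01% of those of at least 199 bases. A threshold of 9 was reached by 25.1%. A peak within 500 bases was found for 31.8% and within 2000 bases for 44.5%, and the median distance to the nearest other grid-bordered peak was 2424 kb. The order of the shares with a peak within 1000 bases (both edges, 1 edge, neither) was the same with a score of at least 8, without the dense groups of chromosome 3, and with lengths of at least 100 or 199 bases. The median score and the share on the minus strand stayed within their intervals under every alternative run for them. The list holds no value per library, so no replicate could be left out. No paired analysis was possible because there is 1 value per peak over all libraries. The depth behind each peak is unknown.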
